A study of Mus musculus with 8 samples.

Results

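MSC2530818, an inhibitor of the kinases CDK8 and CDK19, was given to mouse embryonic fibroblasts with a reprogramming cocktail, both groups were sampled at 4 days, and the libraries with the compound (CFAE+8+MSC) were set against those without it (CFAE+8). These are 4 of the 8 RNA-seq libraries of the series, 2 in each group, with 10958430 to 11420505 counts each. The members described here are the genes with enough counts for a test, 15470 of the 54532 genes in the deposited table. All cells were wild-type embryonic fibroblasts, a primary culture taken from mouse embryos and not a cell line. Both groups received CHIR99021, which inhibits the kinase GSK-3, Forskolin, which activates adenylyl cyclase, AM580, which activates the alpha form of the retinoic acid receptor, and EPZ04777, as it is labelled, a DOT1L inhibitor that blocks methylation of histone H3. Both also received A-83-01, an inhibitor of TGF-beta type I receptors, so a block of that receptor is present with and without MSC2530818. The remaining groups, 2 libraries each, were untreated cells in fibroblast medium (MEF) and cells in the same cocktail with E-616452, another inhibitor of the TGF-beta type I receptor, in place of A-83-01 (CFAE+6). The labels give neither doses nor the cultures the paired libraries were made from, so the p-values below rest on the spread of these libraries alone, which may be technical. Levels are CPM, a gene's counts scaled to library size, given for each library or as mean ± SD with n = 2. A change is given on the log2 scale with its SE, and p is that of edgeR's quasi-likelihood test after Benjamini-Hochberg adjustment over all genes tested, and a gene is said to rise or fall, or is called, only where that adjusted p was under 0.05. Strand is not kept by the kit used, so where gene models overlap the reads cannot be told apart, and the overlap is given where it covers 10% or more of a gene's exon length. In bulk RNA, fewer cells of a type and less RNA per cell cannot be told apart.

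Mediator is the large complex that links transcription factors on enhancers to RNA polymerase II. Its kinase module, made of CDK8 or CDK19 with cyclin C, MED12 and MED13, binds the complex reversibly and can both hold back and promote transcription. The kinases phosphorylate transcription factors, among them STAT proteins, SMADs and members of the Notch and Wnt pathways, so an inhibitor of their activity can be read in the output of several pathways at once.

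MSC2530818 was followed by many changes, most of them small. Of the genes tested, 4538 (29.3%) were called, 2409 higher (15.6%) and 2129 lower (13.8%). Each count of list members below is to be read beside these shares, and a count near them says nothing particular about its list. Without the lists of TGF-beta targets, muscle, serum response and inflammation genes, 2339 rose and 2096 fell of 15317. The median absolute log2 change over all genes tested was 0.22, and 2322 of the called genes (51.2%) moved by less than 0.5 on the log2 scale. In 2876 genes (18.6%) the whole 95% interval of the change lay within 1.2-fold in either direction. The larger changes were mostly rises: 738 genes (4.77%) rose and 250 (1.62%) fell by at least 1 on the log2 scale, and 249 and 49 reached 2. With DESeq2 the latter split at a log2 change of 1 was 623 higher and 162 lower. Among the 4401 genes with a mean of the groups from 50 to 500 CPM, 893 rose and 882 fell, but 65 rose and 15 fell by at least 1. Summed over called genes, the levels gained 71479 CPM and lost 42743 CPM, and of the 238 genes over 500 CPM 89 rose and 47 fell. The plot of all genes by level shows the same lean toward rises among the large changes.

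**Figure D1:**
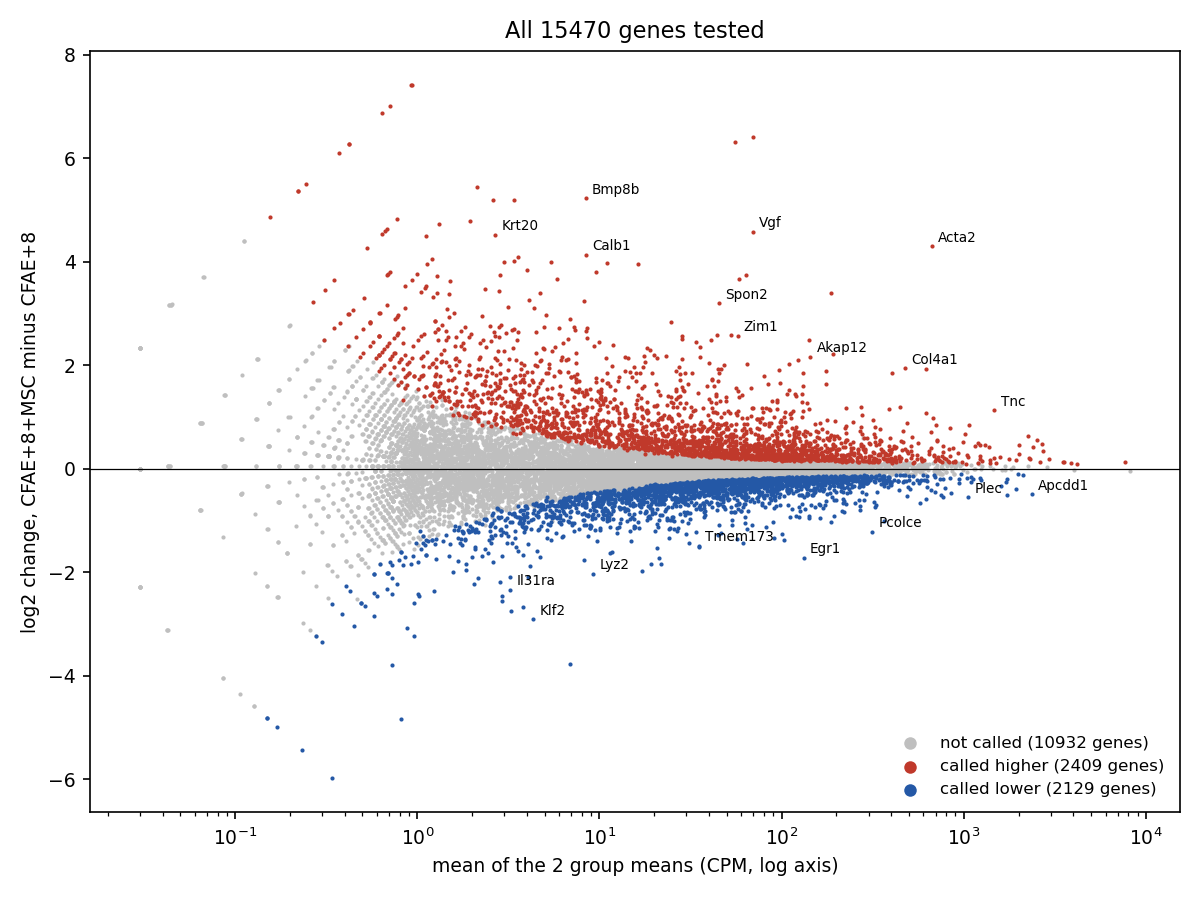
Each point is 1 of 15470 genes, with the mean of the CFAE+8 and CFAE+8+MSC group means in CPM on a log axis and the log2 change with MSC2530818 on the vertical axis. The 2409 genes called higher are red, the 2129 called lower are blue, and the points past 2 on the log2 scale lie mostly above the zero line.

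The messages of the targeted enzymes were present in every library. Of the 7 kinase module genes 0 rose and 3 fell, though 1 or 2 passed when each library was left out in turn. Cdk8, one of the 2 kinases (chr5:146231230-146302874), was at 59.8 and 66.5 CPM in CFAE+8 and at 70.2 and 73.3 CPM in CFAE+8+MSC (log2 change 0.18 ± 0.07, adjusted p = 0.0613). The inhibitor libraries lay above the others, but the change did not pass the threshold, and it did without CFAE+8 replicate 2 (log2 change 0.26, adjusted p = 0.0434). Cdk19, the paralogous kinase (chr10:40339564-40483818), was at 23.99 and 23.2 CPM in CFAE+8 and at 16.6 and 20.6 CPM in CFAE+8+MSC (log2 change -0.34 ± 0.12, adjusted p = 0.0316). That fall did not pass without either CFAE+8 library or without CFAE+8+MSC replicate 1, where it was smallest (log2 change -0.19, adjusted p = 0.37). Ccnc, which encodes cyclin C, the activating partner of both kinases, was at 20.7 and 17.7 CPM in CFAE+8 and at 20.8 and 18.7 CPM in CFAE+8+MSC (log2 change 0.04 ± 0.13, adjusted p = 0.858). Of the scaffold genes that join the kinases to Mediator, Med13l fell (log2 change -0.25 ± 0.07, adjusted p = 0.00463), though not without CFAE+8+MSC replicate 1 (log2 change -0.17, adjusted p = 0.136), and Med12 fell narrowly (log2 change -0.18 ± 0.07, adjusted p = 0.0462). The fall of Med12 did not pass without either CFAE+8 library or without CFAE+8+MSC replicate 2, where it was smallest (log2 change -0.08, adjusted p = 0.49). Med13 and Med12l had log2 changes of 0.06 ± 0.07 and 0.21 ± 0.20 (adjusted p = 0.602 and 0.466). Of 25 tested genes for the rest of Mediator, 1 rose and 2 fell, fewer than over all genes. Med16, a tail subunit, had the largest fall there, from 36.5 and 32.7 to 21.8 and 24.96 CPM (log2 change -0.57 ± 0.10, adjusted p = 0.000102). The other calls there were Med22, lower, which did not pass whichever library was left out, and Med14, higher, which did not pass without CFAE+8 replicate 2. Kinase activity was not measured.

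Markers of fibroblasts had a similar summed level in both groups, below that in MEF. Among the 13 markers of fibroblasts 7 rose and 4 fell, and their summed level was 14381 and 14306 CPM in CFAE+8 and 14354 and 14782 CPM in CFAE+8+MSC, against 31097 and 31858 CPM in MEF. Thy1, a surface glycoprotein of fibroblasts, rose from 1106 and 1094 to 1521 and 1492 CPM, and Col1a2 and Col3a1, which encode fibrillar collagen chains, fell by 0.50 and 0.39 on the log2 scale. These collagen genes, together with Plec, a cytoskeletal linker, Lrp1, an endocytic receptor, and Apcdd1, a membrane-bound Wnt inhibitor, were the 5 largest losses in CPM. Apcdd1 alone went from 2771 and 2741 to 1924 and 1982 CPM (log2 change -0.50 ± 0.03, adjusted p = 1.3e-12). The largest gains were in Acta2, smooth muscle actin, Tnc, the matrix glycoprotein tenascin C, Crabp1, a retinoic acid binding protein, the noncoding RNA H19 and Flna, filamin A. Tnc went from 913 and 924 to 1988 and 2054 CPM (log2 change 1.14 ± 0.04, adjusted p = 3.15e-20) and Crabp1 from 1797 and 1750 to 2812 and 2671 CPM (log2 change 0.63 ± 0.04, adjusted p = 9.79e-14). The libraries of the groups did not overlap for any of these 10 genes, which also held for 63.2% of all genes tested.

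Cytokine receptors and the JAK-STAT pathway, which carries their signal to the nucleus, moved down as a group. Of the interleukin and IL-6 family receptors, 3 of 21 tested members rose and 13 fell (median log2 change -0.42), against 15.6% and 13.8% over all genes. Il31ra, the receptor chain for interleukin 31 (chr13:112519898-112594360), was at 4.69 and 6.11 CPM in CFAE+8 and at 0.953 and 1.18 CPM in CFAE+8+MSC (log2 change -2.33 ± 0.35, adjusted p = 5.26e-06). Il13ra1, a chain of the IL-4 and IL-13 receptor (chrX:36112110-36171259), was at 32.01 and 32.9 CPM in CFAE+8 and at 9.87 and 9.68 CPM in CFAE+8+MSC (log2 change -1.73 ± 0.12, adjusted p = 2.3e-12). Osmr, the oncostatin M receptor, was at 68.97 and 70.7 CPM in CFAE+8 and at 40.96 and 37.4 CPM in CFAE+8+MSC (log2 change -0.83 ± 0.07, adjusted p = 1.95e-10). In each of these genes both inhibitor libraries lay below both others, and so did they for Il4ra, from 135 and 135 to 85.7 and 80.7 CPM, and Il11ra1, from 75.1 and 77.01 to 46.8 and 39.7 CPM. The rule that named Il31ra and Il13ra1 required this, and the libraries of the groups did not overlap in 63.2% of all genes tested. The receptors that rose were Il13ra2, Il17rd and Ifngr1, and Il13ra2 is known as a decoy for IL-13 rather than a signalling chain. Il13ra2 went from a mean of 2.04 ± 0.491 to one of 6.54 ± 0.175 CPM (log2 change 1.68 ± 0.27, adjusted p = 1.73e-05). Between CFAE+8+MSC and CFAE+6, 1621 genes (10.5%) were called, and Il31ra, Il13ra1, Osmr, Il4ra and Il11ra1 did not pass there (adjusted p = 0.945, 0.404, 0.469, 0.851 and 0.459).

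Downstream of the receptors, 1 of 20 tested members rose and 11 fell (median log2 change -0.29). Stat3, the transcription factor most used by IL-6 family cytokines (chr11:100885098-100939540), was at 267 and 264 CPM in CFAE+8 and at 161 and 176 CPM in CFAE+8+MSC (log2 change -0.66 ± 0.05, adjusted p = 3.94e-11). Jak3, a receptor-bound kinase, was at 71.02 and 70.3 CPM in CFAE+8 and at 41.5 and 37.98 CPM in CFAE+8+MSC (log2 change -0.83 ± 0.08, adjusted p = 3.12e-09). Socs3, a feedback inhibitor that STAT3 is known to induce (chr11:117966079-117970047), was at 83.1 and 79.9 CPM in CFAE+8 and at 30.4 and 33.6 CPM in CFAE+8+MSC (log2 change -1.35 ± 0.08, adjusted p = 7.74e-14). All 3 fell with no overlap between the groups, which the rule that named Socs3 required and which held for 63.2% of all genes tested. Stat5a fell from 40.1 and 40.03 to 26.8 and 28.5 CPM. Socs2 was the member that rose, from a mean of 10.3 ± 1.67 to one of 13.96 ± 0.949 CPM (log2 change 0.45 ± 0.15, adjusted p = 0.0287), whereas Stat2 and Stat5b did not pass (log2 changes -0.20 ± 0.11 and -0.06 ± 0.08, and adjusted p = 0.212 and 0.66). Socs3 was lower in CFAE+8+MSC than in CFAE+6 as well, where it was at 40.3 ± 3.23 CPM (adjusted p = 0.0121). The list as a whole was low in CFAE+6 too, which held no MSC2530818. Its summed level was 1340 and 1322 CPM in CFAE+8, 1026 and 1062 CPM in CFAE+8+MSC and 1062 and 1052 CPM in CFAE+6.

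**Figure D2:**
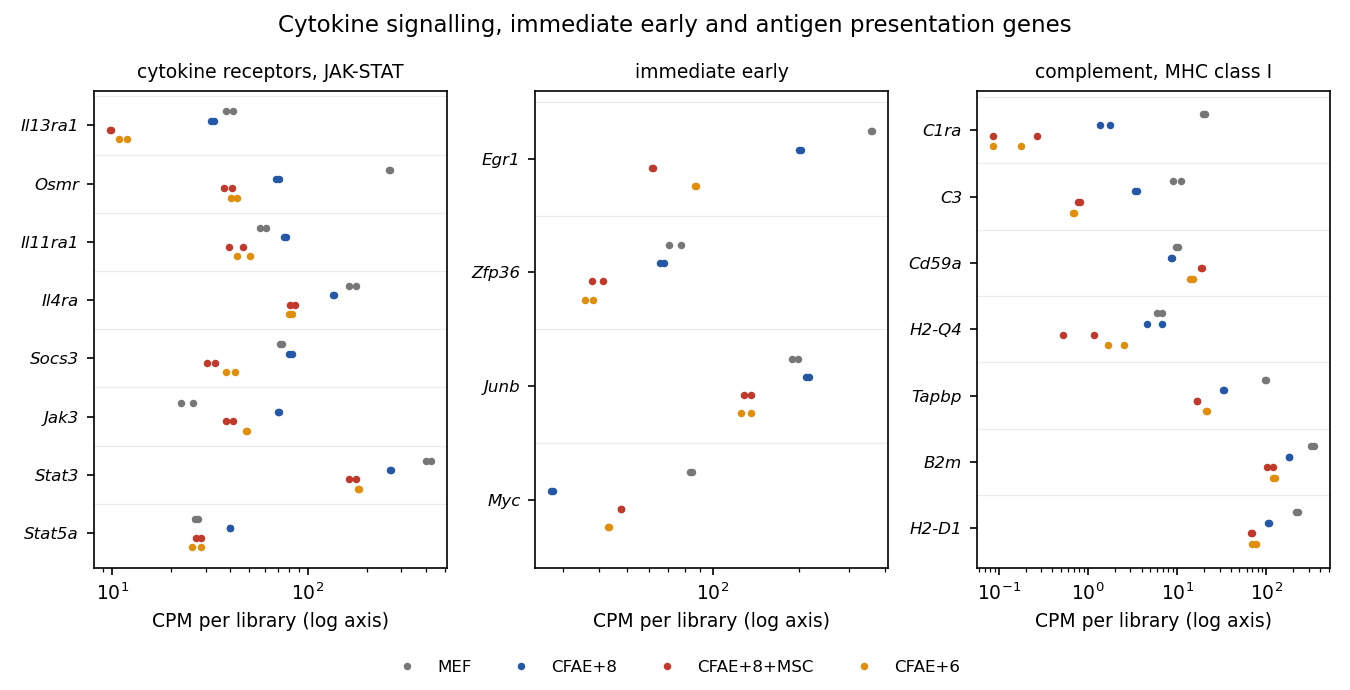
Level of each gene in each library in CPM on a log axis, with 2 points per group for MEF, CFAE+8, CFAE+8+MSC and CFAE+6. For the genes of cytokine signalling the red points of CFAE+8+MSC lie below the blue points of CFAE+8, as in Socs3 and Stat3, whereas those of Myc and Cd59a lie above.

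The promoters of the genes with the largest falls were searched for the STAT site TTCNNNGAA, which is the same on both strands, in windows of 300 bases (250 before and 50 after a start in RefSeq, build GRCm38.p6). This motif was chosen after the values were seen. Of the 29 genes with the largest falls 20 had a window, and 7 of these held the motif (Fbxo17, Il31ra, Mmp23, Serpina3g, Socs3, Sphk1 and Ssh3), as did 9.55% of the 27025 genes with a window in the table. Of the 29 with the largest rises 18 had a window and 1 held it, Prss23. Of the other motifs searched, the cAMP response element TGACGTCA was in none of the 20 or 18 and in 2.03% of all genes, its core TGACG, which that element contains, was in 5 of the 20 and 5 of the 18 and in 23.05% of all genes, and the AP-1 site TGANTCA was in 3, 2 and 8.97%. The TCF/LEF site CTTTGAT was in 2, 0 and 4.29%, the SREBP site TCACNCCAC in 0, 0 and 1.44%, and the CArG box in 0, 0 and 1.81%. Each was searched on both strands, a match is only a run of letters, and no test was made. The windows of 4 genes that fell are shown, with the STAT match in capitals. Socs3 (chr11:117969317-117969616, minus strand) and Il31ra (chr13:112580613-112580912, minus strand) are a feedback inhibitor and a receptor of the same pathway. Serpina3g (chr12:104235897-104236196, plus strand) encodes a serine protease inhibitor, and Sphk1 (chr11:116531587-116531886, plus strand, 1 of 5 windows of the gene) a kinase that makes sphingosine 1-phosphate.
Socs3: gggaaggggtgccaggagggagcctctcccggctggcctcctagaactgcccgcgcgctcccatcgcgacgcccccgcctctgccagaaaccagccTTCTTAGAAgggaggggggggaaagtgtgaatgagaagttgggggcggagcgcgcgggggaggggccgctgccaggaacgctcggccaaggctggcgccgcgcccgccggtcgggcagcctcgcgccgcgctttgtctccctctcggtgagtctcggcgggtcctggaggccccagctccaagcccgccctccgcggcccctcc
Il31ra: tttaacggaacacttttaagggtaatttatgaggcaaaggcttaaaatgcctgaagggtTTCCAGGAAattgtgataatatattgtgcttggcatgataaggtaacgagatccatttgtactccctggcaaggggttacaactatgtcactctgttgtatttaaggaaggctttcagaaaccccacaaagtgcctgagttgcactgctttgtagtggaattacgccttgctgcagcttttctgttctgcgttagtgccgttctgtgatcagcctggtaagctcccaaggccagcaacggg
Serpina3g: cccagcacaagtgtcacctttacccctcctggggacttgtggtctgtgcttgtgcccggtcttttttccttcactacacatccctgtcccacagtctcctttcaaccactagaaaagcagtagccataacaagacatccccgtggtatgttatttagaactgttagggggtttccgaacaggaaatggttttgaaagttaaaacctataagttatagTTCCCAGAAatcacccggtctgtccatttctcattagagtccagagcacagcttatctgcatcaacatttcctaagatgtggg
Sphk1: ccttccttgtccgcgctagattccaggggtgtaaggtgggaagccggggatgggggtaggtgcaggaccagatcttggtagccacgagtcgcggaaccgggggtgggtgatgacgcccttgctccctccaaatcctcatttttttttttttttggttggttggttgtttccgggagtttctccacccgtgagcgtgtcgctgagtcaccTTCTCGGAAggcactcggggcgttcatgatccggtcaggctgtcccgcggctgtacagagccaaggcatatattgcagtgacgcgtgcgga
The first base of the match lay 154 bases before the start in Socs3, 191 in Il31ra, 33 in Serpina3g and 41 in Sphk1. Serpina3g went from 29.96 and 31.5 to 11.7 and 9.59 CPM (log2 change -1.53 ± 0.12, adjusted p = 3.74e-11) and Sphk1 from 64.5 and 65.4 to 27.8 and 27.1 CPM (log2 change -1.24 ± 0.09, adjusted p = 1.56e-12).

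Falls outnumbered rises among genes of antigen presentation and complement. MHC class I molecules show peptides to T cells, and of the 14 tested genes for them and for their peptide loading, 0 rose and 9 fell (median log2 change -0.70). B2m, the shared light chain, was at 181 and 179.7 CPM in CFAE+8 and at 119.9 and 101 CPM in CFAE+8+MSC (log2 change -0.71 ± 0.07, adjusted p = 7.24e-10), and H2-D1, a classical heavy chain, was at 107 and 104 CPM in CFAE+8 and at 68.2 and 69.5 CPM in CFAE+8+MSC (log2 change -0.61 ± 0.07, adjusted p = 1.59e-08). H2-Q4, with the largest fall of the list, went from 6.83 and 4.58 to 0.520 and 1.18 CPM, and is uncertain because its near-identical relatives share reads and 19.1% of its exons lie within another gene's. Of the 10 complement genes 6 fell and 1 rose. C3, the central component of the cascade, went from 3.41 and 3.56 to 0.779 and 0.814 CPM (log2 change -2.12 ± 0.36, adjusted p = 3.29e-05). Cd59a, which blocks the final pore, was the member that rose, from 8.79 and 8.57 to 18.97 and 18.6 CPM (log2 change 1.11 ± 0.15, adjusted p = 6.61e-07). Beside these falls, 0 of 12 macrophage marker genes rose and 3 fell, and their summed level was 43.96 and 44.7 CPM in CFAE+8 and 24.2 and 26.6 CPM in CFAE+8+MSC, with no marker at 0 counts. Lyz2, a macrophage lysozyme whose reads a near-identical paralog may share, made up most of the difference, from 14.9 and 14.7 to 4.24 and 2.98 CPM (log2 change -2.03 ± 0.17, adjusted p = 6.14e-11), and Mrc1 fell from 5.38 and 6.28 to 1.82 and 4.52 CPM, though not without CFAE+8 replicate 2 (log2 change -0.77, adjusted p = 0.11) or CFAE+8+MSC replicate 1 (log2 change -0.37, adjusted p = 0.385). The part of such cells in the falls of antigen presentation and complement genes was not tested.

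Among inducible transcription factors the direction split by gene. Immediate early genes respond to signals within minutes, and of 27 tested 12 rose and 8 fell (median log2 change 0.13). Egr1, a zinc finger factor (chr18:34859823-34864984), was at 204 and 200.4 CPM in CFAE+8 and at 61.7 and 61.4 CPM in CFAE+8+MSC (log2 change -1.72 ± 0.06, adjusted p = 6.16e-20), and Fos, an AP-1 subunit, fell from 38.9 and 29.9 to 17.8 and 16.1 CPM (log2 change -1.02 ± 0.12, adjusted p = 1.37e-07). Junb fell from 211 and 217 to 136 and 129 CPM, and Zfp36, which destabilises messages, from 65.4 and 67.5 to 41.3 and 37.9 CPM. Myc, in contrast, rose from 27.2 and 27.6 to 47.8 and 47.9 CPM (log2 change 0.80 ± 0.08, adjusted p = 8.66e-09). Klf2, a factor of quiescence and vascular biology (chr8:72319033-72321656), had the largest fall among the coding genes of at least 5 CPM outside the lists set aside. It was at 8.02 and 7.29 CPM in CFAE+8 and at 1.47 and 0.543 CPM in CFAE+8+MSC (log2 change -2.90 ± 0.29, adjusted p = 2.69e-09), with 1.13 ± 0.146 CPM in CFAE+6 and 38.4 ± 1.51 CPM in MEF. The other Krüppel-like factors mostly went the other way, since 9 of 14 tested rose and 2 fell. Klf9 went from 17.8 and 17.1 to 37.1 and 35.6 CPM (log2 change 1.06 ± 0.10, adjusted p = 1.06e-09), Klf6 from 103 and 105 to 153 and 146 CPM and Klf13 from 82.5 and 87.4 to 117 and 118 CPM. Of the 10 genes of the Rel homology family, as the deposited table assigns them, 6 fell and 1 rose. Nfkb1 fell from 76.7 and 79.05 to 51.3 and 54.8 CPM (log2 change -0.55 ± 0.07, adjusted p = 3.98e-07), Relb from 34.7 and 34.9 to 23.6 and 21.1 CPM and Rel from 14.6 and 13.3 to 9.27 and 6.78 CPM, and Nfat5, which answers to osmotic stress, rose from 362 and 357 to 476 and 477 CPM (log2 change 0.41 ± 0.05, adjusted p = 3.58e-07). These Rel family genes were chosen after their values were seen.

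The genes with the largest falls at a level of at least 50 CPM came from several functions. Tmem173, which encodes the DNA sensor adaptor STING, went from 53.8 and 49.3 to 18.4 and 18.4 CPM (log2 change -1.48 ± 0.10, adjusted p = 3.54e-13). Tmem176a and Tmem176b, paired membrane protein genes whose starts lie 577 bases apart on opposite strands of chromosome 6, went from 88.4 and 90.4 to 32.5 and 34 CPM and from 129 and 132 to 51.7 and 51.8 CPM (log2 changes -1.43 ± 0.08 and -1.34 ± 0.06). Arrb1, beta-arrestin 1, which desensitises G protein-coupled receptors, went from 142 and 141 to 60.02 and 57.5 CPM (log2 change -1.27 ± 0.07, adjusted p = 9.75e-15), against 16.6 ± 0.0957 CPM in MEF. Pcolce, which enhances procollagen processing, went from 446 and 434 to 193 and 186 CPM (log2 change -1.21 ± 0.05, adjusted p = 1.65e-18). In CFAE+6, Tmem173, Arrb1 and Pcolce were at means of 21.3, 54.7 and 185 CPM. They did not pass between CFAE+8+MSC and CFAE+6 (adjusted p = 0.241, 0.459 and 0.722). Tmem176a and Tmem176b were lower in CFAE+8+MSC than in CFAE+6 (adjusted p = 4.13e-05 and 7.8e-06). No overlap between CFAE+8 and CFAE+8+MSC was a condition of the rule that named these genes, so it adds nothing to their falls. Rpl17, a ribosomal protein gene, met the same rule from 55.6 and 169 to 53.5 and 49.8 CPM, but the fall rests on CFAE+8 replicate 2 and did not pass without it (log2 change -0.10, adjusted p = 0.818). Among genes of at least 5 CPM the falls named by size also took in Ssh3, a cofilin phosphatase gene, from 26.5 and 28.1 to 7.79 and 5.97 CPM, and Pak3, a kinase gene of the same cytoskeletal pathway, from 37.7 and 30.4 to 9.96 and 9.04 CPM.

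**Figure D3:**
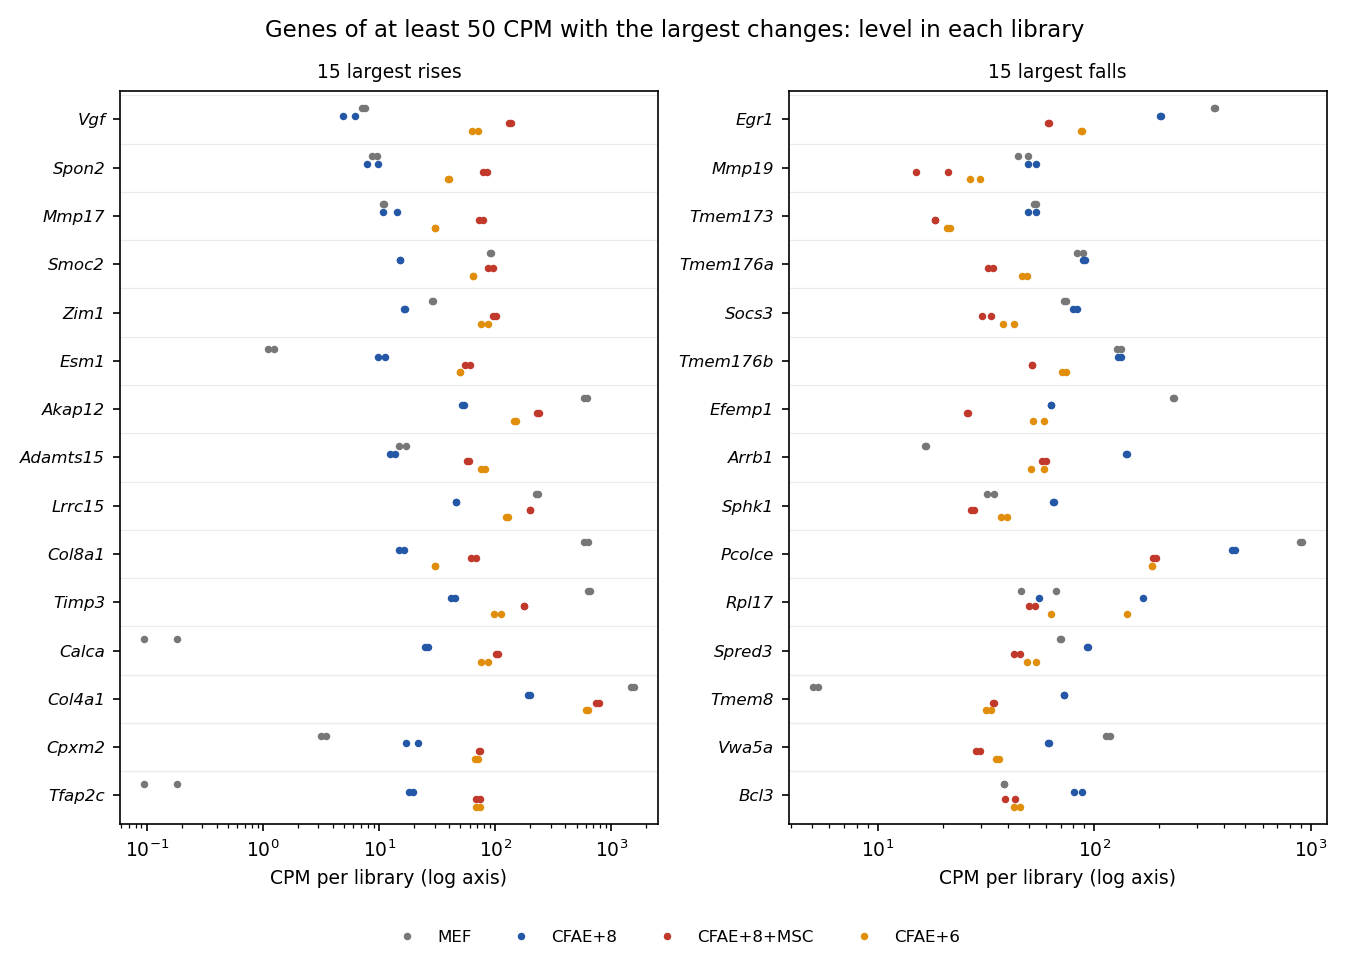
Level in each library in CPM on a log axis for the 15 largest rises (left) and 15 largest falls (right) among genes with a group mean of at least 50 CPM, 2 points per group. Only called genes in which the libraries of CFAE+8+MSC (red) and CFAE+8 (blue) did not overlap were eligible. The red points to the right of the blue on the left panel, and to the left on the right panel, follow from that choice. In Rpl17 the blue points are far apart.

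Vgf, a neuroendocrine secretory peptide gene (chr5:137026392-137033351), was at 6.23 and 4.92 CPM in CFAE+8 and at 137 and 131 CPM in CFAE+8+MSC (log2 change 4.58 ± 0.11, adjusted p = 2.07e-23). It was at 7.37 ± 0.336 CPM in MEF and at 67.2 ± 6.28 CPM in CFAE+6, which lay below CFAE+8+MSC (adjusted p = 8.31e-11). Spon2, a matrix protein that binds integrins (chr5:33198184-33218455), was at 7.94 and 9.84 CPM in CFAE+8 and at 84.8 and 78.9 CPM in CFAE+8+MSC (log2 change 3.20 ± 0.11, adjusted p = 9.35e-20). Mmp17, a membrane-bound metalloprotease, went from 14.3 and 10.86 to 72.6 and 78.5 CPM, and Smoc2, a matricellular calcium-binding protein, from 15.2 and 15.1 to 95.2 and 86.2 CPM. For all 4 the rule that named them required both CFAE+8+MSC libraries to lie above both CFAE+8 libraries. For Smoc2 the CFAE+8+MSC libraries lay at the level of MEF (90.2 and 92.6 CPM). Akap12, a scaffold for protein kinase A, went from 53.3 and 51.5 to 230.4 and 239 CPM (log2 change 2.16 ± 0.06, adjusted p = 5.61e-22), Lrrc15, a surface protein of matrix-forming fibroblasts, from 46.1 and 46.1 to 199 and 198 CPM, and Timp3, a metalloprotease inhibitor with 21.3% of its exon length shared with another gene, from 44.7 and 41.9 to 176 and 176 CPM. In Spon2, Mmp17, Akap12 and Lrrc15 the level with MSC2530818 was also above that in CFAE+6 (adjusted p = 4.76e-10, 2.65e-11, 1.89e-10 and 5.65e-10). Calca, which encodes calcitonin and CGRP, rose from 24.7 and 26.5 to 105 and 102 CPM and was near 0 in MEF (0.0950 and 0.183 CPM).

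Type IV collagen, the main network-forming protein of basement membranes, rose. Of the basement membrane genes listed, 10 of 19 tested members rose and 3 fell (median log2 change 0.29). Col4a1 (chr8:11198423-11312826) was at 200.3 and 191 CPM in CFAE+8 and at 731 and 784 CPM in CFAE+8+MSC (log2 change 1.95 ± 0.05, adjusted p = 2.07e-23), and Col4a2 (chr8:11312805-11449287), whose chain joins it in the same trimer, was at 173 and 176 CPM in CFAE+8 and at 603 and 659.7 CPM in CFAE+8+MSC (log2 change 1.86 ± 0.05, adjusted p = 2e-22). The pair moved by nearly the same amount, and the genes lie head to head on opposite strands of chromosome 8 with starts 21 bases apart in the deposited table. Their RefSeq promoter windows share 78 bases. The window of Col4a1 (chr8:11312777-11313076, GRCm38.p6, minus strand) is shown because 1 stretch serves both genes, with the part shared with the window of Col4a2 in capitals.
Col4a1: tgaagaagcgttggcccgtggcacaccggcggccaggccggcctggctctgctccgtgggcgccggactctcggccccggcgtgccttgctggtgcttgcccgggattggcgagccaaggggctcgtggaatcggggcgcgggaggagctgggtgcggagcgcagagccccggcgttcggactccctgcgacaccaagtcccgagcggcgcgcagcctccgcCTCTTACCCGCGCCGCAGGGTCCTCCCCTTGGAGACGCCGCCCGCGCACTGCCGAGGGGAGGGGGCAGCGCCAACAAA
Nid1, nidogen, which links collagen IV to laminin, rose from 504 and 506 to 905 and 909 CPM (log2 change 0.84 ± 0.04, adjusted p = 1.94e-16), and Lama1, a laminin chain, from 74.2 and 68.7 to 117 and 127 CPM (log2 change 0.77 ± 0.07, adjusted p = 6.92e-10). Both chains of collagen IV stayed below MEF (1512 ± 55.6 and 1283 ± 39.5 CPM).

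Other collagens and matrix enzymes moved both ways. Of 21 tested collagen genes 13 rose and 4 fell. Col8a1 rose from 16.5 and 14.8 to 61.7 and 67.6 CPM and Col5a3 from 65.4 and 66.7 to 133 and 150.2 CPM, whereas Col16a1 fell from 491 and 487 to 240.4 and 245 CPM (log2 change -1.01 ± 0.05, adjusted p = 1.84e-16). Of 23 matrix proteases and inhibitors 11 rose and 9 fell. Mmp13, collagenase 3, was at 61.9 and 68.3 CPM in CFAE+8 and at 169.8 and 177 CPM in CFAE+8+MSC (log2 change 1.41 ± 0.07, adjusted p = 1.59e-16), well above CFAE+6 (64.9 ± 0.799 CPM, adjusted p = 1.41e-15). Timp1, an inhibitor of such enzymes, was at 151 and 147 CPM in CFAE+8 and at 58.2 and 56.8 CPM in CFAE+8+MSC (log2 change -1.37 ± 0.06, adjusted p = 4.49e-17), so it fell while Timp3 rose. Adamts15, which cleaves proteoglycans, rose from 13.7 and 12.4 to 59.5 and 56.8 CPM, and Mmp19 fell from 49.7 and 54.1 to 21.05 and 15.1 CPM, with 28.3% of its exon length shared with another gene. Among 24 proteoglycan and hyaluronan genes 10 rose and 7 fell, with 4 falls without CFAE+8+MSC replicate 2. Fmod, the small collagen-binding proteoglycan fibromodulin, rose from 1.37 and 1.70 to 5.28 and 6.51 CPM, against 106 ± 6.71 CPM in MEF.

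Adhesion receptors and guidance molecules rose far more often than they fell. Of the integrins, which anchor cells to matrix, 11 of 19 tested rose and 0 fell (median log2 change 0.36). Itgb3, the beta 3 chain (chr11:104608000-104670476), was at 13.2 and 12.5 CPM in CFAE+8 and at 46.2 and 45.9 CPM in CFAE+8+MSC (log2 change 1.84 ± 0.11, adjusted p = 3.98e-14), and Itga8, a partner of beta 1, was at 28.2 and 26.6 CPM in CFAE+8 and at 77.3 and 66.02 CPM in CFAE+8+MSC (log2 change 1.39 ± 0.09, adjusted p = 1.74e-13). Itga1 rose from 84.9 and 86.8 to 175 and 168 CPM and was at 173 ± 4.84 CPM in CFAE+6. Of the cadherins and protocadherins, which join cells to each other, 11 of 19 tested rose and 1 fell (median 0.76). Cdh4, retinal cadherin, went from 6.91 and 7.12 to 29.2 and 25.96 CPM (log2 change 1.97 ± 0.15, adjusted p = 1.21e-11) and Pcdh10 from 15.4 and 14.8 to 43.1 and 42.96 CPM (log2 change 1.51 ± 0.10, adjusted p = 1.3e-12). Of 39 tested axon guidance genes, which steer migrating cells as well as axons, 23 rose and 4 fell (median 0.38). The receptor Plxna2 went from 59.8 and 56.7 to 132 and 128 CPM (log2 change 1.16 ± 0.07, adjusted p = 2.11e-14), and the semaphorin Sema7a, a membrane-anchored ligand, from 13.7 and 13.3 to 41.6 and 37.2 CPM. Sema6a rose from 69.4 and 67.6 to 127 and 128 CPM, and Sema3f, a secreted ligand, fell from 151 and 136 to 83.7 and 83.7 CPM (log2 change -0.78 ± 0.06, adjusted p = 3.21e-11).

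Among growth factor receptors and IGF binding proteins rises outnumbered falls, while the ligands did not share a direction. Of 27 receptor tyrosine kinases 14 rose and 3 fell (median 0.43). Egfr, the receptor for EGF family ligands (chr11:16752203-16918158), was at 28.4 and 28.2 CPM in CFAE+8 and at 83.6 and 83.1 CPM in CFAE+8+MSC (log2 change 1.56 ± 0.08, adjusted p = 1.07e-15). Kdr and Flt1, receptors for VEGF, went from 21.3 and 19.8 to 45.6 and 43.5 CPM and from 10.3 and 10.3 to 23.9 and 23.4 CPM. Of 7 endothelial marker genes tested 3 rose, and the summed level of the 9 in the table was 43.6 and 40.3 CPM in CFAE+8 and 82.97 and 81.2 CPM in CFAE+8+MSC, with Kdr and Flt1 themselves in that list and 1 marker at 0 counts. The part of endothelial cells in the rise of these receptors was not tested. Of the IGF binding proteins, which bind and store insulin-like growth factors, 5 of 7 rose and 0 fell. Igfbp5 was at 75.1 and 74.3 CPM in CFAE+8 and at 281 and 269 CPM in CFAE+8+MSC (log2 change 1.88 ± 0.06, adjusted p = 3.42e-21), Igfbp7 at 62.7 and 67.2 CPM in CFAE+8 and at 204 and 191 CPM in CFAE+8+MSC (log2 change 1.61 ± 0.06, adjusted p = 1.02e-18), and Igfbp2 rose from 7.51 and 6.19 to 30.7 and 26.5 CPM. Of 32 growth factor ligands 5 rose and 8 fell, against 15.6% and 13.8% over all genes. The falls were fewer without CFAE+8 replicate 1 or without CFAE+8+MSC replicate 2. Areg, amphiregulin, an EGFR ligand, rose from 9.30 and 9.08 to 25.2 and 20.8 CPM, and Mdk, midkine, fell from 125 and 119 to 66.7 and 83.1 CPM.

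Pathways that the cocktail itself drives were read through their known target genes. Of 19 Wnt and beta-catenin targets, which CHIR99021 activates, 10 rose and 4 fell (median 0.21), and Axin2, the standard reporter, did not pass (log2 change -0.11 ± 0.05, adjusted p = 0.0836). The members with the smallest adjusted p were Apcdd1, above, Ccnd1, cyclin D1, which fell from 997 and 988 to 720.5 and 710.3 CPM with 23.4% of its exons shared with another gene, and Nkd2, a feedback inhibitor, which rose from 88.2 and 82.8 to 131 and 138 CPM. Of 17 retinoic acid targets 6 rose and 6 fell. Aldh1a2, which makes retinoic acid, rose from 9.22 and 6.11 to 36.03 and 31.3 CPM (log2 change 2.14 ± 0.14, adjusted p = 8.97e-13). Stra6, the retinol uptake receptor, fell from 753 and 738 to 515 and 475 CPM (log2 change -0.59 ± 0.05, adjusted p = 5.72e-11). Crabp2 fell from 49.5 and 54.5 to 31.4 and 30.5 CPM (log2 change -0.75 ± 0.09, adjusted p = 7.43e-08). Rarg, retinoic acid receptor gamma, is not in that list and fell from 255 and 246 to 122 and 123 CPM (log2 change -1.03 ± 0.05, adjusted p = 2.59e-15). Of 23 cAMP targets, the pathway of Forskolin, 8 rose and 4 fell, with 1 or 2 falls when each library was left out in turn. Beside Vgf, Rgs2, which shortens G protein signals, rose from 9.90 and 10.01 to 30.8 and 31.5 CPM (log2 change 1.64 ± 0.12, adjusted p = 8.44e-12) and Pde10a, which degrades cyclic nucleotides, from 24.2 and 26.3 to 46.9 and 45.7 CPM. Of 15 ERK feedback genes 6 rose and 3 fell, against 15.6% and 13.8% over all genes. Spry1 rose from 11.9 and 9.92 to 31.7 and 30.3 CPM, with 24.4% of its exons shared with another gene, and Dusp4 from 102 and 97.9 to 155 and 145 CPM, while Spred3 fell from 93.98 and 92.5 to 42.5 and 45.4 CPM.

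The Notch and BMP pathways showed some of the larger shifts among signalling genes. Jag1, a Notch ligand (chr2:137081456-137116644), was at 11.4 and 12.6 CPM in CFAE+8 and at 44.2 and 41.9 CPM in CFAE+8+MSC (log2 change 1.84 ± 0.10, adjusted p = 2.16e-14). Hes1, a repressor that Notch induces (chr16:30064384-30067796), was at 9.56 and 12.6 CPM in CFAE+8 and at 45.6 and 41.4 CPM in CFAE+8+MSC (log2 change 1.97 ± 0.12, adjusted p = 6.47e-14), above CFAE+6 (21.3 ± 2.26 CPM, adjusted p = 3.6e-08), and Hey1, a related target, went from 13.7 and 9.16 to 24.4 and 25.7 CPM. In all, 6 of 13 Notch pathway genes rose and 3 fell, the falls being 1 or 2 when each library was left out in turn. Among BMP and GDF ligands 7 of 16 rose and 4 fell. Bmp4 rose from 83.8 and 89.9 to 192 and 197 CPM (log2 change 1.16 ± 0.06, adjusted p = 5.22e-15) as Bmp2 fell from 287 and 277 to 165 and 152 CPM (log2 change -0.83 ± 0.06, adjusted p = 7.52e-13), and the activin subunit Inhba rose from 375 and 382 to 549.7 and 539 CPM. Bmp8b, a further ligand, had the largest rise by the same size rule, from 0.341 and 0.509 to 16.6 and 16.1 CPM (log2 change 5.23 ± 0.30, adjusted p = 1.91e-14), and is uncertain because 12.2% of its exons lie within another gene's. Of 17 BMP targets and antagonists 10 rose and 2 fell (median 0.72). Id2 and Id4, inhibitors of helix-loop-helix factors, rose from 112 and 121 to 200.4 and 187 CPM and from 12.4 and 13.7 to 36.2 and 33.4 CPM, Msx1 from 201 and 203 to 345 and 322 CPM, and the antagonist Grem1 from 68.5 and 76.4 to 155 and 149 CPM (log2 change 1.07 ± 0.06, adjusted p = 1.17e-14), whereas Id1 fell (log2 change -0.18 ± 0.05, adjusted p = 0.00396). Of the 2 falls in that list 1 was by at least 1 on the log2 scale. Between CFAE+8+MSC and CFAE+6, Bmp4 and Id4 did not pass (adjusted p = 0.83 and 0.482). Bmp2, Inhba, Id2, Msx1 and Grem1 did pass there (adjusted p = 0.000259, 1.16e-05, 0.00105, 0.000877 and 4.98e-07). Of 13 Hedgehog pathway genes 4 rose and 4 fell, against 15.6% and 13.8% over all genes. Ihh, a ligand, had 2 counts in CFAE+8 and 57 in CFAE+8+MSC, or 29.6 times the share of the counts (95% interval from counting error 7.84 to 251), and Boc, a co-receptor, fell from 47.03 and 43.8 to 31.96 and 25.4 CPM.

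Among transcription factor genes the large changes were mostly rises, as over all genes. Of 1069 transcription factor genes tested 179 rose and 135 fell, but 66 rose and 7 fell by at least 1 on the log2 scale, against 738 and 250 over all genes. The 7 were Klf2, Egr1, Batf, Zfp78, Scx, Rarg and Fos. By family in the deposited table, 13 of 28 forkhead genes rose and 1 fell, 31 of 111 homeobox genes rose and 14 fell, and 3 of 41 bZIP genes rose and 12 fell. Foxs1, a forkhead factor of vascular mural cells (chr2:152931898-152933208), was at 0.768 and 0.848 CPM in CFAE+8 and at 8.23 and 8.95 CPM in CFAE+8+MSC (log2 change 3.39 ± 0.29, adjusted p = 1.16e-10), and Foxc2, of mesenchymal and lymphatic development, rose from 14.3 and 15.2 to 37.7 and 37.7 CPM (log2 change 1.35 ± 0.11, adjusted p = 3.26e-11). Tfap2c and Tfap2b, AP-2 factors of the neural crest and surface ectoderm, rose from 17.9 and 19.5 to 73.6 and 68.4 CPM and from 0.854 and 0.424 to 10.2 and 10.3 CPM. Both were near 0 in MEF (at most 0.18 CPM), and neither differed from CFAE+6 past the threshold (adjusted p = 0.994 and 0.652).

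Of 30 tested GATA, nuclear receptor and other lineage factors 10 rose and 2 fell, with 1 fall when either CFAE+8 library was left out. Sox2, a factor of pluripotent and neural cells (chr3:34650405-34652461), was at 2.99 and 1.61 CPM in CFAE+8 and at 10.1 and 9.77 CPM in CFAE+8+MSC (log2 change 2.11 ± 0.25, adjusted p = 9.07e-08), and Runx3, of the Runt family, rose from 1.88 and 1.70 to 7.10 and 8.32 CPM. Sox17, an endoderm factor, rose from 0.854 and 0.933 to 7.53 and 8.05 CPM, with 16.8% of its exons shared with another gene and 0 counts in MEF. Fezf2, a forebrain factor (log2 change 1.89 ± 0.12, adjusted p = 8.01e-13), and the homeobox genes Msx3, Phox2a, Evx1 and Lhx9 (log2 changes 2.67 ± 0.22, 2.67 ± 0.36, 1.75 ± 0.20 and 1.79 ± 0.27) rose too and were chosen after their values were seen. Evx1 was at 4.44 and 4.33 CPM in CFAE+8 and at 14.2 and 15.4 CPM in CFAE+8+MSC, against 5.38 and 7.02 CPM in CFAE+6 (adjusted p = 3.63e-05). Of 38 listed homeobox and T-box genes outside the Hox clusters 14 rose and 2 fell, and the rises took in Dlx2, from 22.6 and 18.9 to 45.6 and 40.2 CPM, and Tbx2, from 267 and 248 to 362 and 353 CPM. The Hox genes themselves, which set position along the body, fell more often than they rose: 2 of 31 rose and 8 fell (median -0.35), with 5 falls without CFAE+8 replicate 2. Hoxa5 fell from 16.7 and 16.1 to 10.5 and 8.77 CPM and Hoxb9 from 134 and 133 to 104 and 106 CPM. Of 7 tested pluripotency genes 4 rose and 1 fell, Klf2, and the listed genes of that state that were not tested had too few counts.

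**Figure D4:**
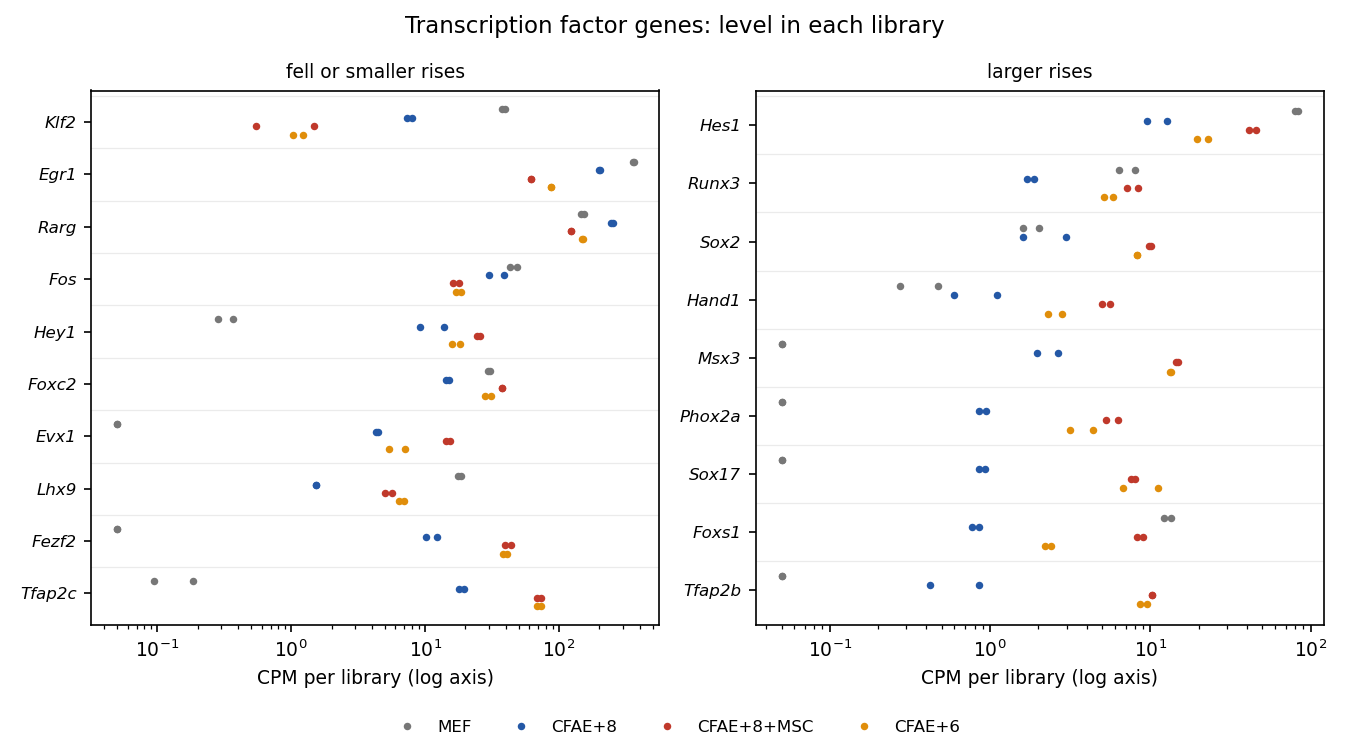
Level in each library in CPM on a log axis for 19 transcription factor genes, 2 points per group, with genes at 0 counts drawn at 0.05 CPM. The genes were picked by hand for display, so the split of directions follows from that choice. Over all 1069 transcription factor genes tested 179 rose and 135 fell. Klf2, Egr1, Rarg and Fos lie lower in CFAE+8+MSC (red) than in CFAE+8 (blue) and the other 15 lie higher, with several of these at 0 in MEF (grey).

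Rises outnumbered falls among epithelial and mesothelial genes. Of 26 tested epithelial keratin and junction genes 16 rose and 0 fell, but some passed the count filter only through the groups where they are higher. Krt18 and Krt8, the keratin pair of simple epithelia, both rose, Krt18 from 5.80 and 5.77 to 20.8 and 18.7 CPM and Krt8 from 2.90 and 2.04 to 11 and 10.3 CPM (log2 changes 1.77 ± 0.17 and 2.11 ± 0.23). Krt19, a further keratin of such cells, rose from 1.28 and 1.87 to 10.7 and 10.04 CPM (log2 change 2.71 ± 0.24, adjusted p = 3.35e-10), and the junction genes Jup, plakoglobin, and Perp from 34.8 and 34.3 to 64.5 and 60.95 CPM and from 21.9 and 20.4 to 69.9 and 66.9 CPM. Gjb2, a gap junction gene, and Krt15 had 0 counts over the CFAE+8 libraries and 42 each over CFAE+8+MSC, at least 14.6-fold higher when CFAE+8 is set at 3 counts in all. Krt6b and Upk3b also had 0 counts and were at least 11.1-fold and 10.1-fold higher. Krt6b may share reads with its close relatives. The summed level of 11 epithelial markers was 12.2 and 11.7 CPM in CFAE+8, 47.8 and 43.8 CPM in CFAE+8+MSC and 40.8 and 44.9 CPM in MEF. Of the 7 tested 5 rose and 0 fell, and Epcam, the defining surface marker, did not pass (log2 change -0.38 ± 0.66, adjusted p = 0.72), whereas Cdh1, E-cadherin, rose from 0.256 and 0.0848 to 1.13 and 0.995 CPM (log2 change 2.56 ± 0.80, adjusted p = 0.0131). Of 17 mesothelial genes 11 rose and 0 fell, with Podxl, a sialomucin, from 2.99 and 2.04 to 10.6 and 11.2 CPM, and Krt8, Krt18 and Krt19 are in both lists. The part of epithelial or mesothelial cells in these rises was not tested.

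Some neuronal, neural crest and channel genes rose and fewer fell. Of 30 neuronal and neurosecretory genes 16 rose and 3 fell, with 1 fall without CFAE+8 replicate 2 or CFAE+8+MSC replicate 2. Calb1, a calcium buffer (chr4:15881264-15908064), was at 1.02 and 0.763 CPM in CFAE+8 and at 15.8 and 15.9 CPM in CFAE+8+MSC (log2 change 4.14 ± 0.25, adjusted p = 1.13e-13), and CFAE+6 stood higher, at 23.7 and 27.1 CPM. Nefm, a neurofilament, rose from 69.9 and 80.5 to 143 and 154 CPM (19.2% of its exons shared with another gene) and Stmn2, a microtubule regulator of axons, from 32.2 and 29.4 to 64 and 59.1 CPM, whereas Gap43, a growth cone protein, fell from 306 and 312 to 193 and 198 CPM (log2 change -0.66 ± 0.05, adjusted p = 7.81e-12), and Tubb3 and Map2, markers of neurons, fell as well, with log2 changes of -0.22 ± 0.08 and -0.76 ± 0.28 (adjusted p = 0.0252 and 0.0402). The fall of Map2 did not pass whichever library was left out (without CFAE+8 replicate 2, log2 change -0.67, adjusted p = 0.186), and that of Tubb3 did not without CFAE+8 replicate 2 (log2 change -0.17, adjusted p = 0.235) or without CFAE+8+MSC replicate 2 (log2 change -0.15, adjusted p = 0.251). Of 5 tested neuronal markers 2 rose (Stmn2 and Syt1) and 2 fell (Tubb3 and Map2). Syt1, a synaptic vesicle calcium sensor, went from 0.683 and 0.424 to 2.94 and 1.72 CPM (log2 change 2.06 ± 0.49, adjusted p = 0.00167), a call lost without CFAE+8+MSC replicate 1 (log2 change 1.62, adjusted p = 0.0557). The summed level of the 7 neuronal markers was 104 and 107 CPM in CFAE+8 and 135 and 121 CPM in CFAE+8+MSC, and the part of such cells in these changes was not tested. Of 12 neural crest and glia genes 6 rose and 1 fell, with Ednrb, an endothelin receptor, from 2.82 and 1.70 to 10.7 and 9.68 CPM. Its ligand Edn1 rose from 0.683 and 0.0848 to 7.27 and 6.15 CPM (log2 change 4.09 ± 0.41, adjusted p = 3.38e-09), and Adra2a, an adrenergic receptor, from 83.4 and 87.5 to 264 and 264 CPM (log2 change 1.63 ± 0.06, adjusted p = 4.37e-19). Of 37 ion channel genes 20 rose and 3 fell, with 13 rises without CFAE+8 replicate 2 or CFAE+8+MSC replicate 1 and 1 fall without CFAE+8 replicate 1. Piezo2, a mechanosensitive channel, rose from 55.8 and 51.99 to 116 and 120.2 CPM (log2 change 1.13 ± 0.07, adjusted p = 1.24e-13), and Kcnh1, a potassium channel, from 5.89 and 6.62 to 23.2 and 22.8 CPM.

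Imprinted genes, expressed from 1 parental copy, included several strong rises in 2 neighbourhoods of chromosome 7. Zim1 (chr7:6671269-6696450) was at 16.6 and 16.3 CPM in CFAE+8 and at 95.1 and 101 CPM in CFAE+8+MSC (log2 change 2.57 ± 0.09, adjusted p = 2.09e-19), and its neighbour Peg3 (chr7:6703892-6730431), on the same strand with a start 33981 bases away, was at 262 and 284 CPM in CFAE+8 and at 630.1 and 619.9 CPM in CFAE+8+MSC (adjusted p = 1.38e-17). Further along, Igf2 rose from 59.8 and 55.04 to 161 and 151 CPM (log2 change 1.44 ± 0.07, adjusted p = 1.86e-16), the overlapping transcript Igf2os from 11.9 and 11.5 to 58.4 and 61.5 CPM, and H19 from 1998 and 2048 to 2886 and 3098 CPM (log2 change 0.56 ± 0.04, adjusted p = 3.4e-13). Igf2 and Igf2os share 64.5% and 23.2% of their exon lengths with other genes, and the kit does not mark strand, so their reads cannot be told apart. Igf2 is expressed from the paternal and H19 from the maternal copy, and the counts do not separate the copies. Over the list, 11 of 24 tested rose and 5 fell, the falls being 2 without CFAE+8 replicate 1 and 3 without CFAE+8 replicate 2 or CFAE+8+MSC replicate 2.

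Genes of lipid and amino acid metabolism that passed mostly rose. Of 24 genes of cholesterol synthesis and uptake 11 rose and 0 fell (median 0.32). Cyp51, a sterol demethylase, was at 141 and 151 CPM in CFAE+8 and at 228 and 228 CPM in CFAE+8+MSC (log2 change 0.64 ± 0.05, adjusted p = 5.09e-11). Sqle and Lss, which act at squalene, rose from 115 and 106 to 153 and 144 CPM and from 59.7 and 60.98 to 86.3 and 79.5 CPM. Of 19 fatty acid synthesis genes 8 rose and 2 fell, with Scd1, a desaturase, from 172 and 172 to 275 and 279.9 CPM (log2 change 0.69 ± 0.05, adjusted p = 1.69e-12). Of 22 ATF4 and amino acid genes 11 rose and 3 fell, with 6 rises without CFAE+8 replicate 2 and 7 without CFAE+8+MSC replicate 2, and Slc3a2, an amino acid transporter chain, went from 228 and 224 to 318 and 315 CPM. Oxidant defence genes of the NRF2 pathway moved both ways, 4 of 17 up and 8 down, with 4 falls without CFAE+8 replicate 2. Hmox1, heme oxygenase, fell from 89.5 and 85.9 to 61.3 and 57.97 CPM, and the glutathione transferase Gsta4 rose from 20.9 and 21.03 to 48.2 and 44.3 CPM. Gsta2, a transferase with near-identical relatives, rose from 0.0854 and 0.254 to 6.76 and 6.51 CPM and is uncertain.

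Most growth and division genes changed by small amounts, but the calls had 1 direction in several lists. They were all falls in replication and mitosis and all rises in ribosome biogenesis. Of 23 ribosome biogenesis genes 13 rose and 0 fell (median 0.21), as in Rrp12, from 41.7 and 38.7 to 56.7 and 59.5 CPM (log2 change 0.53 ± 0.08, adjusted p = 6.15e-06). Only 2 of these passed a test against a 1.2-fold change. Of 26 DNA replication genes 0 rose and 10 fell (median -0.14), but 3 with DESeq2 and 3 to 6 when each library was left out in turn. Mcm6, a subunit of the replicative helicase, went from 151 and 155 to 124 and 117 CPM (log2 change -0.34 ± 0.06, adjusted p = 2.48e-05). Of 26 mitosis genes 0 rose and 11 fell, but 5 with DESeq2 and 6 without CFAE+8 replicate 2 or CFAE+8+MSC replicate 1. Mki67, the usual marker of cycling cells, went from 178 and 172 to 126 and 119.6 CPM (log2 change -0.51 ± 0.06, adjusted p = 9.03e-08), and the kinesin gene Kif23 from 46.7 and 43.6 to 30.1 and 26.95 CPM. Of 22 p53 targets 9 rose and 1 fell, with Pmaip1, which promotes cell death, from 62.2 and 63.9 to 171 and 173 CPM (log2 change 1.45 ± 0.06, adjusted p = 1.38e-17). Of 15 tested mitochondrially encoded genes 10 rose and 0 fell (but 4 without CFAE+8 replicate 1 and 6 without CFAE+8+MSC replicate 1), and mt-Nd4l, a complex I gene, stood out, from 5.72 and 7.04 to 31.1 and 26.5 CPM (log2 change 2.17 ± 0.17, adjusted p = 2.3e-11), against 2.57 ± 0.661 CPM in MEF and 3.73 ± 0.659 CPM in CFAE+6. Of 25 nuclear oxidative phosphorylation genes 2 rose and 2 fell, against 15.6% and 13.8% over all genes.

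Genes of protein folding that passed were all higher. Of 19 endoplasmic reticulum chaperone genes 11 rose and 0 fell, though 4 without CFAE+8 replicate 1, 5 without CFAE+8 replicate 2 and 6 without CFAE+8+MSC replicate 2. Pdia6, a disulfide isomerase, went from 437 and 443 to 524 and 567 CPM (log2 change 0.31 ± 0.05, adjusted p = 5.53e-06). Of 15 heat shock genes 5 rose and 0 fell, though 3 rose without either CFAE+8 library. Cryab, a small heat shock protein and the largest of these rises, went from 77.3 and 84.6 to 196 and 192 CPM (log2 change 1.26 ± 0.06, adjusted p = 1.53e-15), and 17.04% of its exons overlap another gene. Of 27 glycolysis and hypoxia genes 3 rose and 8 fell, against 15.6% and 13.8% over all genes. Adm, adrenomedullin, rose from 23.7 and 18.4 to 65.3 and 61.9 CPM (log2 change 1.59 ± 0.10, adjusted p = 7.86e-14), and the glycolytic gene Hk1 fell from 97.2 and 94.5 to 70.5 and 72.2 CPM.

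Among 840 long noncoding RNA genes 42 rose and 47 fell, against 2330 and 2039 of 13589 coding genes. Neat1, the scaffold of nuclear paraspeckles (chr19:5824708-5845478), was at 84.9 and 80.7 CPM in CFAE+8 and at 38.97 and 47.9 CPM in CFAE+8+MSC (log2 change -0.93 ± 0.07, adjusted p = 3.68e-11), against 622 ± 15.5 CPM in MEF. Miat rose from 3.93 and 3.65 to 19.3 and 20.4 CPM, with 30.4% of its exons shared with another gene. Gm42047 fell from 155 and 156 to 84.4 and 81.2 CPM (log2 change -0.91 ± 0.06, adjusted p = 5.88e-13) and Gm48898 rose from 0.939 and 0.594 to 6.67 and 8.23 CPM (log2 change 3.26 ± 0.32, adjusted p = 1.89e-09), and no function is given for either here.

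The plot of the gene lists sets their shares of called members beside those over all genes. Of the lists plotted there, the epithelial, mesothelial and cadherin lists had the highest medians and the complement, MHC class I and cytokine receptor lists the lowest. The medians cover tested members only, 26 of the 39 epithelial genes in the table, and Gjb2, Krt15 and Krt6b of that list and Upk3b of the mesothelial list had 0 counts in CFAE+8 and passed the filter through other groups, so no order is read from the top of the plot. Every list was written with earlier results of these data known, so its count is a description and not independent evidence of a direction.

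**Figure D5:**
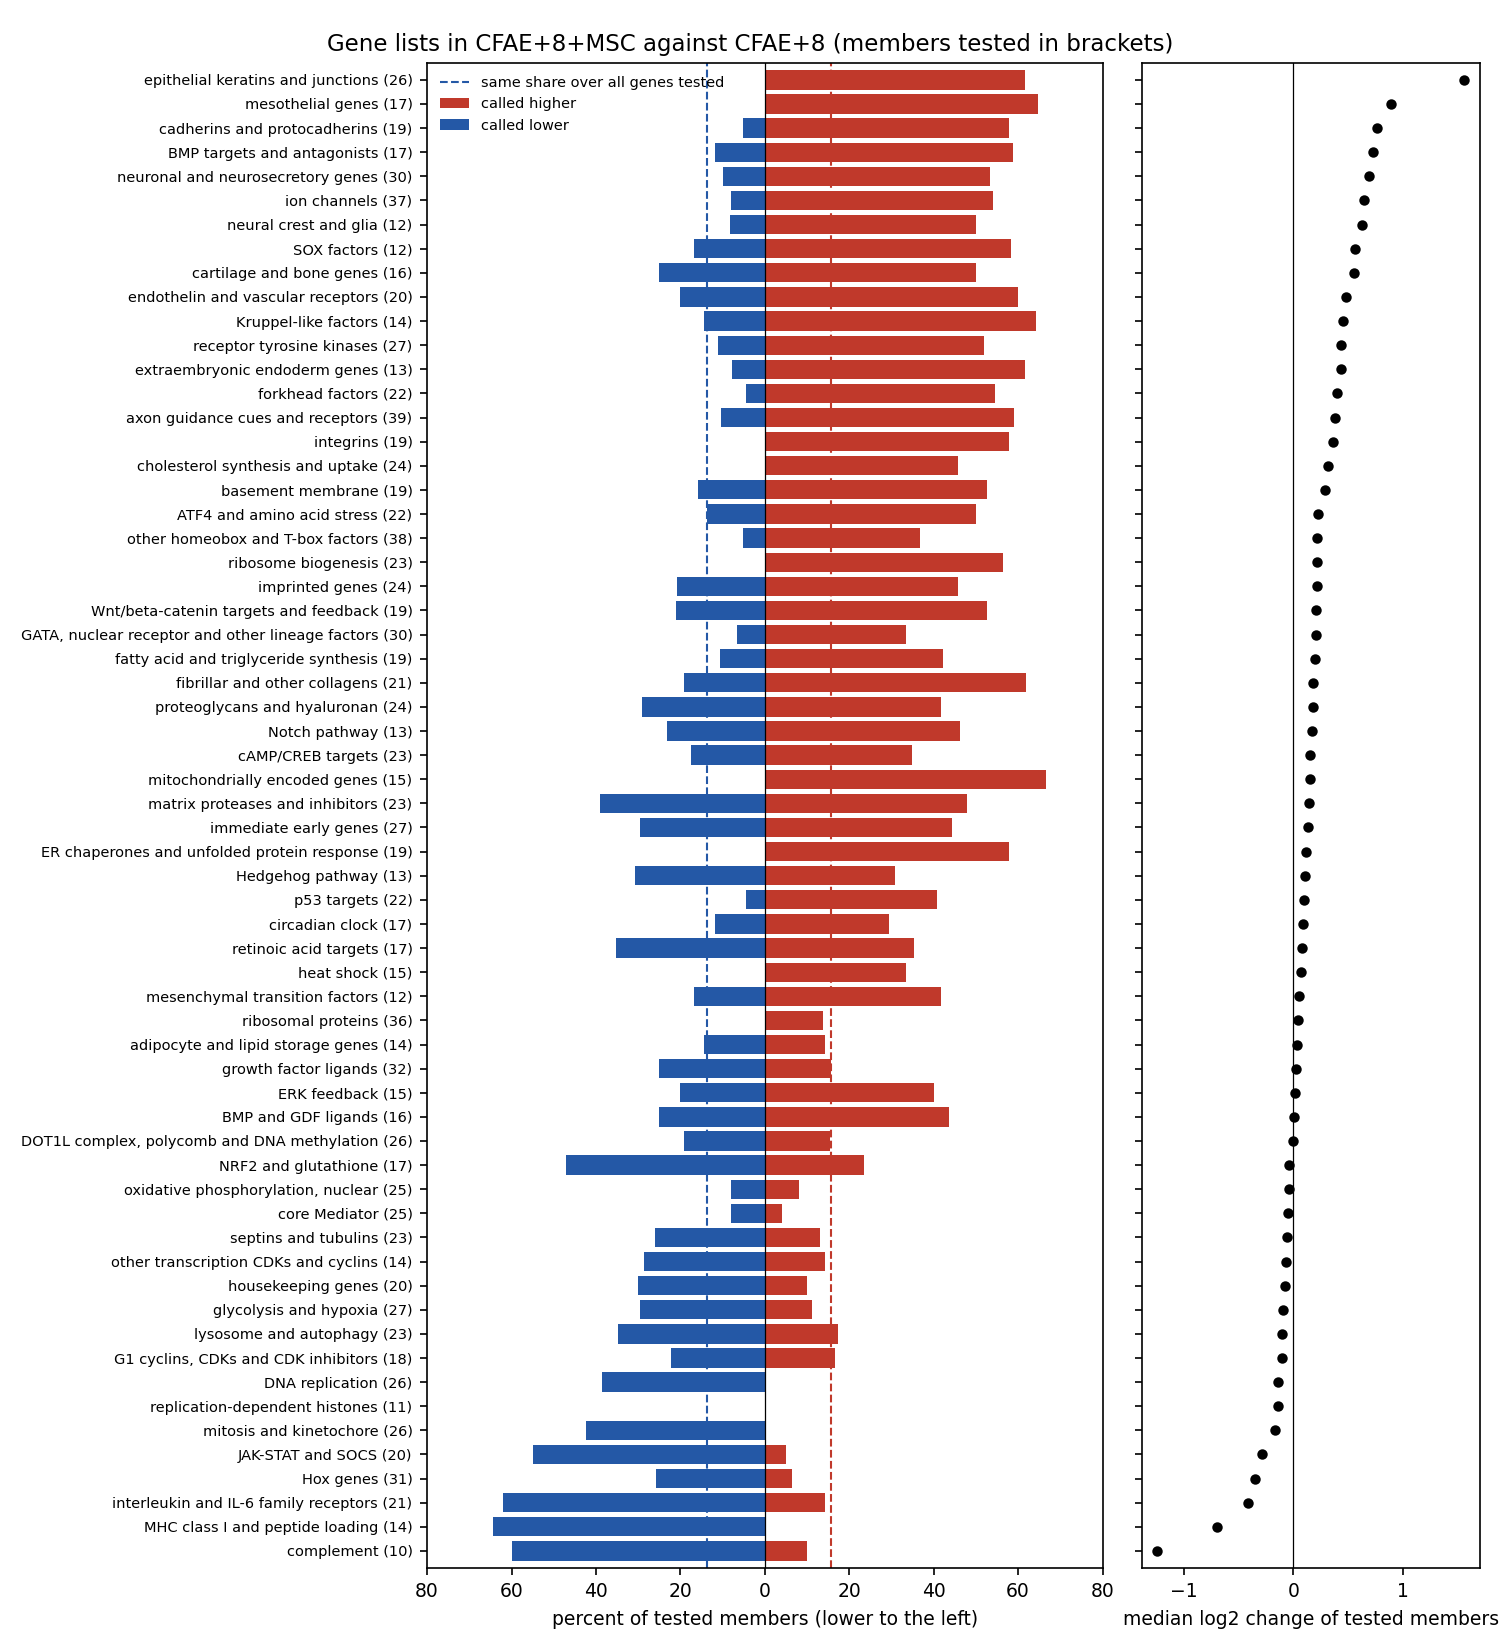
Left, percent of tested members called higher (red, to the right) and lower (blue, to the left) for each gene list with at least 10 tested members other than the lists set aside and the cell type markers, with the same shares over all genes tested, 15.6% and 13.8%, as dashed lines. Right, the median log2 change of the tested members, which is -1.24 for complement and 1.56 for epithelial genes, the second partly from members with 0 counts in CFAE+8.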

How the data were processed

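The authors deposited 1 table of raw counts per gene for 8 libraries of 4 groups, and per the submitters' processing notes featureCounts from Subread, DESeq2 and mm10 were used. No source used here names the aligner. Of the 54532 gene identifiers 54495 were found in GENCODE M21, which gave exon overlaps and replaced 27 symbols held as dates. Counts were scaled to CPM here with TMM factors. The test was edgeR 4.0.16 quasi-likelihood on all 8 libraries (filterByExpr, 4 residual degrees of freedom), with Benjamini-Hochberg adjustment over 15470 genes, which hold 99.9% of counts. SE is the log2 change over the root of F. In data simulated with an assumed spread, the test recovered most log2 changes of 1 and 2 put into genes with enough counts. Smaller changes, and changes in genes with few counts, were not put in, so their recovery is not known.

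The text names the 15 largest rises and falls among coding genes outside the lists set aside. They are taken among genes of at least 5 CPM and again of at least 50 CPM. These genes had to be called, with both libraries of 1 group beyond both of the other. Up to 6 noncoding genes each way were named by the same rule. Further names are up to 4 members per list by smallest adjusted p, the kinase module and the 5 largest gains and losses in CPM. Genes at 0 counts in 1 group and at least 1 CPM in the other are named as well. The members, the lists and these rules were chosen with earlier results of these data known. Axin2, Cdh1, Epcam, Evx1, Fezf2, Fos, Id1, Il13ra2, Lhx9, Msx3, Nfat5, Nfkb1, Phox2a, Rel, Relb, Socs2, Stat2 and Stat5b were chosen after their values were seen. Alternatives were DESeq2 1.42.0, its size factors, upper-quartile scaling, no or a stricter filter, fits on 4 or 6 libraries, a replicate block, an adjusted p of 0.01, a test against 1.2-fold, and leaving out each library. Counting intervals and floors cover counting error only, protein sequences were not used here, and some genes chosen by these rules are not reported here.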

Additional observations from a re-analysis of the deposited data

How the results depend on the processing

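The counts of 2409 genes higher and 2129 lower, and of 738 and 250 past a log2 change of 1, stayed within 1.5 times under every alternative other than those named next. DESeq2 called 1300 lower, 162 of them past 1. An adjusted p of 0.01 left 1322 lower and 165 past 1, and the test against 1.2-fold left 1294 higher and 731 lower. Leaving out 1 library gave 1786 to 1978 higher, 670 to 687 of them past 1, and 1399 to 1543 lower, 211 to 226 of them past 1. No strong pairing by replicate number was seen: deviations of same-numbered libraries correlated between -0.0224 and 0.0630. A weak pairing could be missed, since many genes of low level enter these correlations. The labels do not say whether same-numbered libraries belong together. With a replicate block 2405 genes were higher and 2126 lower, with 732 and 246 past 1. The calls of all 335 named genes were as before with that block, 319 were with DESeq2 and 314 to 321 were without 1 library. Reversed signs, all of genes not called, were Fabp4 (-0.89 without CFAE+8 replicate 2, -0.50 without CFAE+8+MSC replicate 2 and up to 3.70 without other libraries), Ccnc (-0.070 without CFAE+8 replicate 2, -0.04 without CFAE+8+MSC replicate 1 and up to 0.16) and Med13 (-0.000847 without CFAE+8+MSC replicate 1 and up to 0.12). The cause of these shifts was not tested, beyond the fewer samples and stricter thresholds of the settings. With 2 libraries a group the spread rests on all groups, and 3 counts are 0.265 CPM in 1 library. Changes given from smaller levels, as in Cdh1 and Ihh, rest on few counts, so their size is uncertain.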
